A study of Mus musculus with 73 samples.

Results

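The 48 genes described here are transcribed during DNA replication (the S set, 22 genes) or from late replication to the end of mitosis (the G2/M set, 26 genes). They were chosen by name as a list of cell cycle genes, not by their measured values but with earlier results of these data known. All 48 are among the 23994 mouse gene rows of the expression table. The study sequenced the polyadenylated RNA of 73 single cells of 1 mouse, an adult of 10 weeks and the B6 strain with the genotype Csf1r-GFP. The cells came from the right lung lobes 7 days after pneumonectomy, the surgical removal of the left lung, and were sorted as positive for CD45, F4/80 and the CSF1R-GFP reporter, green fluorescence tied to expression of Csf1r, with Ly6G named without a sign. They were captured on a Fluidigm C1 chip, amplified with SMARTer chemistry and made into Nextera XT libraries. All 73 cells form 1 group, and no unoperated lung was analysed here, so no value describes an effect of the operation. Since cells of 1 mouse are not replicates, no test was made and no p-value is given. The range behind a share of cells is its 95% interval (exact, Clopper-Pearson) and covers counting error alone.

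A dividing cell loads the MCM helicase onto its DNA before S phase, when E2F factors switch on genes for replication and for the supply of deoxynucleotides. Later, cyclins A and B with Cdk1 drive entry into mitosis, and the kinetochore, spindle and cytokinesis genes are transcribed, many of them through CHR and CCAAT promoter elements. In the lung, resident alveolar macrophages can renew themselves by division, whereas classical monocytes arrive from the bone marrow, where their precursors divide.

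Promoter sequences show a feature that separates the sets and that the choice of members did not use. Of the 48 members, 40 had an entry in the RefSeq promoter table (GRCm38.p6), which gives 250 bases before and 50 after each start; Mcm4, Gins2, Rfc2, Ccne2, Ccna2, Aurkb, Tpx2 and Stmn1 did not. The motifs searched on both strands were E2F (TTTCCCGC, TTTGGCGC, TTTCGCGC or TTTGCCGC), CHR (TTTGAA) and the CCAAT box (CCAAT). An E2F match lay in 7 of 21 S promoters (33.3%), in 1 of 23 G2/M promoters (4.35%) and in 744 of all 32851 promoters (2.26%). A CHR together with a CCAAT box lay in 2 of 21 S promoters (9.52%), in 18 of 23 G2/M promoters (78.3%) and in 6.95% of all promoters. Counted with or without the other motif, CHR occurred in 14.3% of S, 78.3% of G2/M and 17.9% of all promoters, and CCAAT in 61.9%, 91.3% and 37.4%. A match describes the letters and is not evidence of binding.

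The 150 bases up to the start are printed for 3 S genes with an E2F match and 3 G2/M genes with CHR and CCAAT, to let the patterns be compared. They are Mcm6 (chr1:128359706-128359855, minus strand), Mcm5 (chr8:75109359-75109508, plus), Cdc6 (chr11:98908001-98908150, plus), Top2a (chr11:99024190-99024339, minus), Mki67 (chr7:135716380-135716529, minus) and Kif11 (chr19:37376232-37376381, plus), each read in its gene's direction. Capitals mark every match of the 3 motifs on either strand, so that a CCAAT box on the other strand reads ATTGG, CHR reads TTCAAA, and the long run in Mcm6 holds overlapping E2F matches.
Mcm6: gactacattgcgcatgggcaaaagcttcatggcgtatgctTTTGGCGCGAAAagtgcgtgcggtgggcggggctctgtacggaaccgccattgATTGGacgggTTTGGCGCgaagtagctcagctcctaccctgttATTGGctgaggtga
Mcm5: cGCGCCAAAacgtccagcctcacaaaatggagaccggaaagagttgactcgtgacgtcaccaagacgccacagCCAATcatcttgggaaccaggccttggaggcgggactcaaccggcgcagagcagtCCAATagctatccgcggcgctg
Cdc6: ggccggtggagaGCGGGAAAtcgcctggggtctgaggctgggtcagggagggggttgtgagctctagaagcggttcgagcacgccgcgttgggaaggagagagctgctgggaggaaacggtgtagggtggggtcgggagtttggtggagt
Top2a: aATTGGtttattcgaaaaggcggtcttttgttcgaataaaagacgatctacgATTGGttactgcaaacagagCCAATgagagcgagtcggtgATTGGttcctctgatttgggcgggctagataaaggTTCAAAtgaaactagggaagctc
Mki67: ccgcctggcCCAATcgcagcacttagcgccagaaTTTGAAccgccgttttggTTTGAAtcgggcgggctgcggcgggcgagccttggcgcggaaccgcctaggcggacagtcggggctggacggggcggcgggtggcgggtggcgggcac
Kif11: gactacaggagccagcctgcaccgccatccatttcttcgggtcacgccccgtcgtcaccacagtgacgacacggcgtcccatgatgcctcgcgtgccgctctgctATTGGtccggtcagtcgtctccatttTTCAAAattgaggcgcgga

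Few cells held these transcripts in number. FPKM, fragments scaled by transcript length and by the depth of the cell, was the scale throughout, and a gene is called held by a cell at FPKM of 10 or more. Of the 3504 values of 48 members in 73 cells, 781 were above 0 and 254 reached FPKM 10. A median of 554.5 estimated fragments, and at least 10, lay behind each of those 254 values. The median member was held by 3 cells (3.5 for S and 3 for G2/M genes). The median of all gene rows was 0 cells, and 57.3% of all rows were held by no cell, against 2.08% of members. Among gene rows held by at least 1 cell the median was 5 cells. Members held by over 10 cells numbered 4 of 48 (8.33%), against 13% of all gene rows and 30.5% of the rows held by at least 1 cell. The values nearest the threshold were Gins2 in cell 64 at 10.2 and Rrm1 in cell 25 at 10.4 inside it, and Fen1 in cell 48 at 9.97 and Ccnb2 in cell 37 at 9.96 outside.

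A cell was said to hold a set when it held at least 3 of its genes. The S set was held by 10 of 73 cells (13.7%, 6.77 to 23.8), the G2/M set by 9 (12.3%, 5.80 to 22.1) and both by 6 (8.22%, 3.08 to 17.04). When 4 genes were needed, the S set was held by 6 cells, the G2/M set by 6 and both by 3. Both sets were also held by 3 cells at FPKM of 50 or more and without the 4 members held by over 10 cells, and by 4 without Stmn1 and Hmgb2. Cells 25, 30, 37, 50, 55 and 61 held both sets, cells 19, 24, 64 and 75 only the S set, and cells 58, 77 and 84 only the G2/M set. These 13 cells (17.8%, 9.84 to 28.5) carried 148 of the 254 values at FPKM 10 or more. Of the other 60 cells, 52 held 1 to 4 members and 8 held none. Without the 4 members held by over 10 cells, only cells 25, 30 and 37 still held both sets. Cell 50 then held 9 S and 1 G2/M genes, cell 55 held 2 and 5, and cell 61 held 3 and 2. Cells 19, 24 and 58 then held no set. The cut fell where cells were dense, since 4 cells held exactly 3 S genes and 18 held 2, while 3 cells held exactly 3 G2/M genes and 12 held 2.

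Above that, 5 cells stood apart. Cell 37 held 34 of the 48 members, cell 30 held 21, cells 25 and 84 held 19 each and cell 50 held 14, followed by cell 55 with 9 and cell 61 with 6. The 5 cells with at least 10 members make 6.85% of the 73 (2.26 to 15.3). As background, the share of all gene rows at FPKM 10 or more was 6.4% in the median cell. It was 8.99% in cell 37, 9.32% in cell 30, 9.93% in cell 25, 8.04% in cell 84 and 8.48% in cell 50, where 70.8%, 43.8%, 39.6%, 39.6% and 29.2% of the members were held. In cell 55 the members' share was 18.8% against 7.31% of all genes, and in cell 61 it was 12.5% against 7.63%. The 6 remaining cells that held a set had 8.33% to 10.4% of the members, beside 8.85% (cell 19), 6.61% (cell 24), 5.83% (cell 58), 8.12% (cell 64), 6.94% (cell 75) and 8.44% (cell 77) of all genes. Those shares are near the background.

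**Figure D1:**
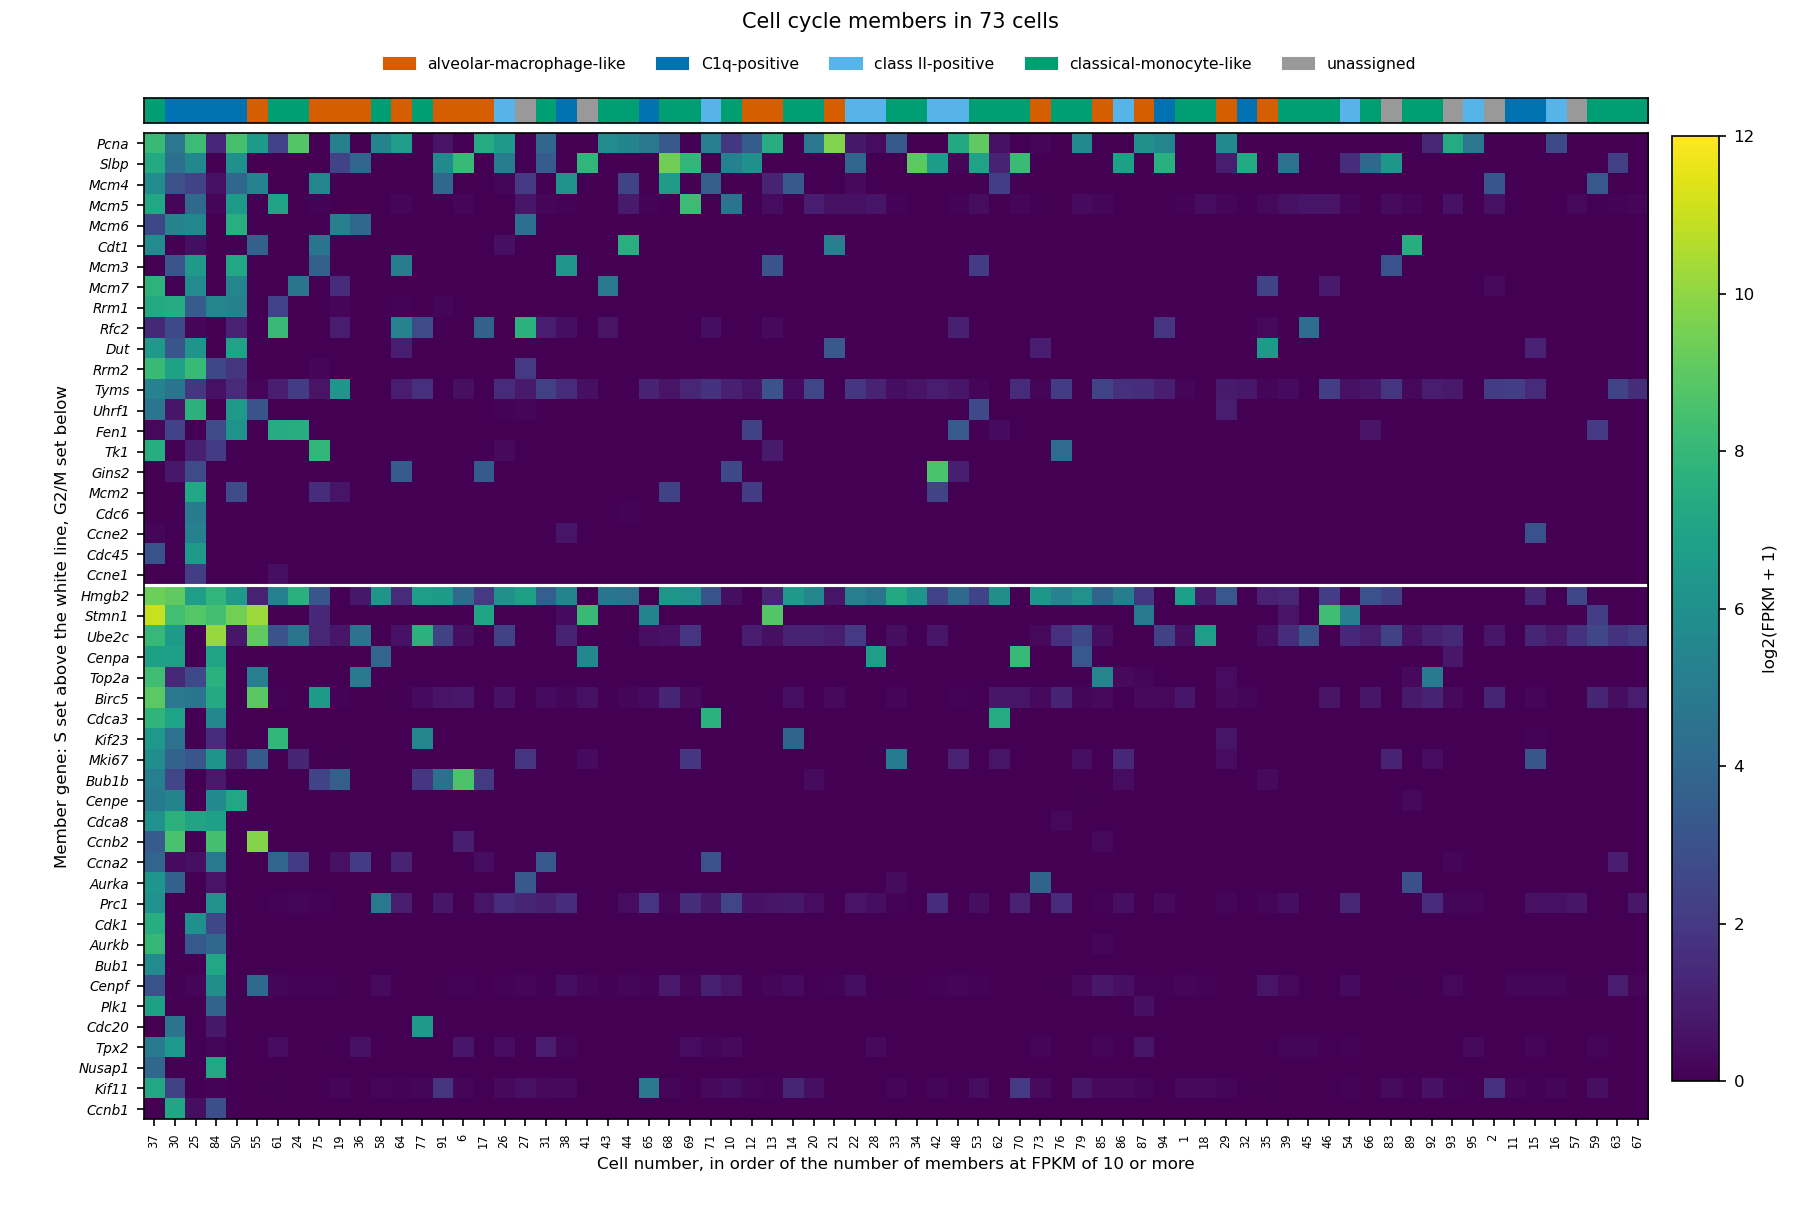
Level of each of the 48 members (vertical axis, S set above the white line) in each of 73 cells (horizontal axis, cells in order of the number of members held), as log2(FPKM + 1), with the class of each cell in the strip on top. Cells 37, 30, 25, 84 and 50 at the left are filled through much of 1 or both sets, while Pcna, Slbp, Hmgb2 and, less widely, Stmn1 recur in the cells to the right.

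The balance between the sets differed among the 5 cells. Cell 25 held 14 S and 5 G2/M genes and cell 50 held 11 and 3. Cell 84 held 1 S and 18 G2/M genes. Cell 37 held many of both, 12 S and 22 G2/M genes, and cell 30 held 6 and 15. Over all 73 cells the number of S genes and of G2/M genes had a Pearson r of 0.51 and a Spearman rho of 0.20, a description in which the cells share 1 chip and each pair of values shares a library depth.

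**Figure D2:**
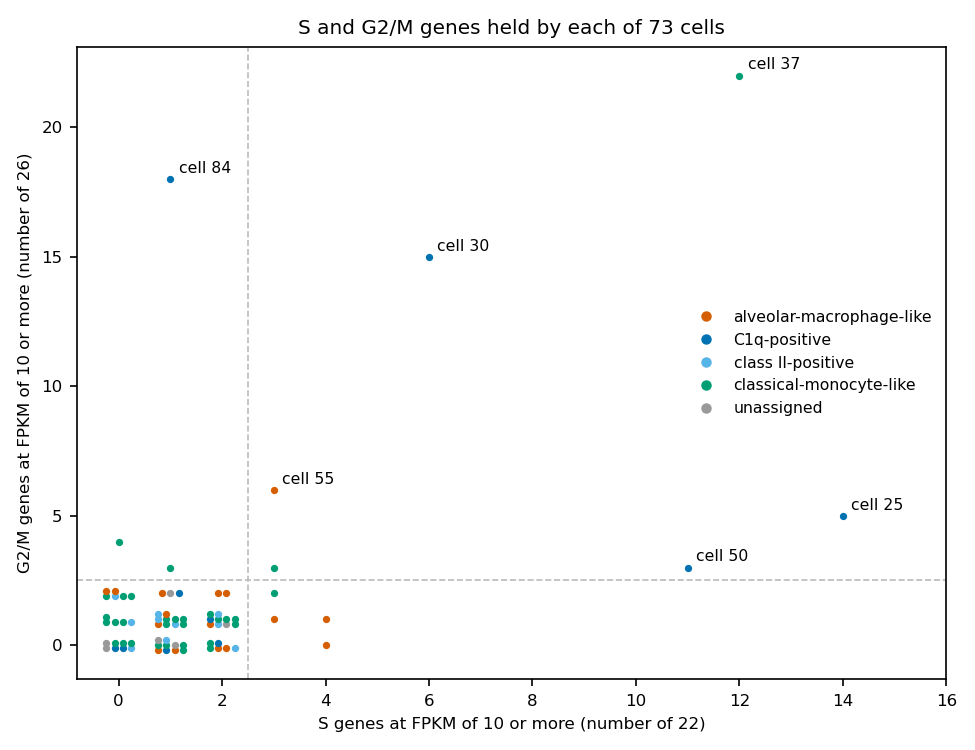
Number of S genes (horizontal axis) against number of G2/M genes (vertical axis) at FPKM of 10 or more in each of 73 cells, coloured by class, with dashed lines below the cut of 3 genes and overlapping points set slightly apart. Cells 25 and 50 lie far along the S axis, cell 84 far along the G2/M axis, and cells 37 and 30 are high on both.

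The MCM helicase subunits, which unwind DNA at the replication fork, were spread thinly over the cells and packed into 3. Cells 25 and 50 held 5 of the 6 subunits and cell 37 held 3, while cells 38 and 75 held 2, 14 cells held 1 and 54 held none. Mcm2 reached FPKM 10 in cell 25 alone, at 144. Mcm6 was highest in cell 50 at 187, with 44.6 in cell 25, 39.9 in cell 30 and 36.7 in cell 19. Mcm3 was highest in cell 50 at 143, with 89.4 in cell 25 and 74.8 in cell 38, which held neither set. The highest Mcm7 value was 213 in cell 37, beside 54.04 in cell 25 and 42.4 in cell 50. Mcm5 was also held by cells with few other members, with 301 in cell 69, which held neither set, against 148 in cell 37, 119 in cell 61 and 91.5 in cell 50. Mcm4 was held by 8 cells at 11.6 to 98.8, of which 4 held neither set.

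Of the factors that load and start the helicase, Cdc6 and Cdc45 were held by cell 25 alone. Cdc6, the licensing factor, was at 29.8 there, Cdc45, which activates the helicase, at 85.5. Ccne2, a cyclin of the G1 to S transition, was also held by cell 25 alone, at 37.6. Ccne1, its paralogue, was the only member held by no cell, which allows a share of up to 4.93%. The highest Ccne1 value was 3.60, also in cell 25. Cdt1, the other licensing factor, was at 0.36 in cell 25, and its 6 cells included 3 that held neither set, with its highest value, 191, in cell 44. Gins2, a helicase cofactor, was at 5.72 in cell 25 and held by cells 42 (385) and 64.

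The genes of nucleotide supply differed in the cells that held them. Rrm1, the large subunit of ribonucleotide reductase, was held by these 5 cells and no other, at 10.4 in cell 25, 36.4 in cell 50, 43.3 in cell 84, 159 in cell 37 and 173 in cell 30. Its partner Rrm2, whose amount is limiting for the enzyme, was held by 3 of them, at 271 in cell 25, 276 in cell 37 and 116 in cell 30. In cells 84 and 50 Rrm2 was at 5.02 and 2.51, below the threshold. Dut, which removes dUTP, was at 74.0, 87.9 and 122 in cells 25, 37 and 50, and at 92.04 in cell 35, which held neither set. Tyms, which makes dTMP, was at 39.4 in cell 37 and 24.2 in cell 30 but highest in the alveolar-macrophage-like cell 19 at 77.2. Tk1, thymidine kinase, was at 175 in cell 37, higher, at 246, in cell 75, and at 17.6 in cell 76. Rrm1 was thus the only gene of this group held by all 5 cells.

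Uhrf1, which guides maintenance of DNA methylation behind the fork, was held by cells 25 (208), 50 (88.5) and 37 (25.05) and no other. Fen1, which trims Okazaki fragments, was at 70.2 in cell 50 but at 175 in cell 24 and 166 in cell 61. Rfc2, a subunit of the clamp loader, was held by none of the 5 cells and reached 269.9 in cell 61 and 203 in cell 27. Pcna, the sliding clamp, was held by 28 of 73 cells (38.4%, 27.2 to 50.5) at 10.6 to 837, with 365 in cell 50, 302 in cell 25, 269.8 in cell 37, 25.7 in cell 30 and 1.56 in cell 84. Its highest value was in cell 21, which held neither set. Slbp, which binds histone mRNA, was held by 25 cells (34.2%, 23.5 to 46.3) at 10.4 to 669.9, and 21 of those 25 held neither set. Both genes were thus common in cells without the remainder of the S set.

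Among the mitotic cyclins and kinases, Cdk1, the kinase that drives mitotic entry, was held by cell 37 at 175 and cell 25 at 65.1. Its partner Ccnb1 was held by cell 30 alone, at 133. Ccnb2 was held by 3 cells, at 376 in cell 30, 348 in cell 84 and 886 in cell 55, and lay at 9.96 in cell 37. Ccna2 was held by cells 84 (28.05), 37 (14.2) and 61 (14.1). Cell 30 thus held both B cyclins and cell 84 held Ccnb2 with Ccna2, while no cell held Cdk1 together with Ccnb1 or Ccnb2 at FPKM 10. Aurkb, the kinase of the chromosomal passenger complex, was at 254 in cell 37 and 15.3 in cell 84, and Plk1 at 112 and 13 in the same cells. Aurka, the spindle pole kinase, was held by cells 37 (78.5), 30 (12.1) and 73 (13.7).

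Some genes of the passenger complex and the kinetochore were shared by several of the 5 cells and absent elsewhere at FPKM 10. Cdca8, borealin, was held by cells 30 (209.8), 25 (129), 84 (113) and 37 (66.2) and no other cell of 73. Birc5, survivin, was held by 6 cells, all of which held a set, at 504 in cell 37, 480.0 in cell 55, 159 in cell 84, 93.1 in cell 75, 25.7 in cell 30 and 24.1 in cell 25. Cenpe, the kinetochore motor, was held by cells 50 (141), 84 (51.6), 30 (39.7) and 37 (29.5) and no other. Bub1, a spindle checkpoint kinase, had values above 0 only in cells 84 (139) and 37 (54.6). Its relative Bub1b was highest in cell 6 at 398, a cell that held neither set. Cenpa, the centromeric histone H3 variant, was at 127, 113 and 112 in cells 84, 37 and 30, and at 262 in cell 70 and 106 in cell 28, which held neither set. Cenpf was held by cells 84 (60.02) and 55 (16.3).

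Of the genes for the spindle and chromosome structure, Nusap1 had values above 0 only in cells 84 (142) and 37 (15.5). Top2a, the topoisomerase that untangles sister chromatids, was at 321 in cell 37, 202 in cell 84 and 34.6 in cell 55, and 3 cells that held neither set (36, 85 and 92) lay between 29.5 and 42.97. Mki67, which coats mitotic chromosomes, was at 72.9 in cell 84, 58.6 in cell 37 and 13.1 in cell 30, and at 30.2 in cell 33, which held neither set. The 4 cells of Mki67 and the 6 of Top2a shared 2 cells, 37 and 84. Kif11, the motor that separates the spindle poles, was at 147 in cell 37 and 27.3 in cell 65. Tpx2, a spindle assembly factor, was held by cells 30 (82.6) and 37 (31.2), and Prc1, which bundles the midzone, by cells 37 (66.8), 84 (65.2) and 58 (27.6). Kif23, a motor of the midzone, was at 242 in cell 61, 82.1 in cell 37, 43.2 in cell 77, 21.7 in cell 30 and 13.6 in cell 14.

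For exit from mitosis, Ube2c, the ubiquitin-conjugating enzyme of the anaphase-promoting complex, was held by 8 cells. It was at 1136 in cell 84, 545 in cell 55, 265 in cell 37, 207 in cell 77, 91.1 in cell 30 and 23.5 in cell 24. Cells 18 and 36, which held neither set, had it at 106 and 22.5. Cdc20, the activator of that complex, was held by cells 77 (87.8) and 30 (23.8). Cdca3, which acts in mitotic entry, was at 229 in cell 37, 123 in cell 30 and 46.8 in cell 84, and at 200.2 and 165 in cells 71 and 62, which held neither set. Stmn1, which destabilises microtubules, was held by 13 cells, with 2051 in cell 37, 1213 in cell 55, 692 in cell 50, 453 in cell 25, 345 in cell 84 and 331 in cell 30. The other 7 cells that held it, all without a set, lay between 28.1 and 438, with cell 13 highest. Hmgb2, a chromatin protein also transcribed in cells that do not divide, was held by 33 cells (45.2%, 33.5 to 57.3), with 657 in cell 37, 530.1 in cell 30 and 239 in cell 84.

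Across the members, 33 of 48 had their highest value in 1 of the 5 cells, 7 in another cell that held a set and 8 in a cell that held neither. The 8 were Mcm4, Mcm5, Pcna, Gins2, Cdt1, Slbp, Bub1b and Cenpa. High values thus also occurred in cells with few other members. Leaving out the 4 common members (Pcna, Slbp, Stmn1 and Hmgb2), 155 values of 44 genes reached FPKM 10, of which 89 were in the 5 cells, 31 in the other 8 cells that held a set and 35 in the 60 that held neither. All 26 G2/M genes and 19 of 22 S genes (not Gins2, Rfc2 or Ccne1) were held by at least 1 of the 5 cells, and 16 members were held there and nowhere else. The 5 cells were picked by their number of members, so these counts follow in part from the pick. The same counts over all genes are not given here. Some members overlap another gene in the GENCODE annotation (release 21; 23 of 48, on the same strand in 8), among them Mcm7 with Cops6 and Ap4m1, Ube2c with Tnnc2, Cdc20 with Elovl1, Tk1 with Afmid and Fen1 with Tmem258. Whether counting used strand is not given in the sources used here, so fragments of such partners cannot be told apart.

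The 5 cells also had more genes detected than most. Genes detected at FPKM of 1 or more numbered 2970 to 3745 in them, against 1044 to 3256 (median 2200.5) in the 60 cells that held neither set. Their estimated mouse fragments ran from 1302660 to 3485930, against a median of 1408830 over all cells, and cell 30 ranked first. Mouse fragments per spike-in fragment numbered 2.17 in cell 50, 2.95 in cell 84, 4.20 in cell 37, 4.26 in cell 30 and 6.05 in cell 25, against a median of 1.73. Every cell was also thinned to 347003 mouse fragments, and its levels were then scaled back up for the loss. In 20 of 20 such draws the 5 cells kept at least 10 members, and cell 55 reached 10 in 11. A median of 554.5 estimated fragments lay behind the values at FPKM 10 or more, so held genes were unlikely to be lost. The thinning therefore cannot tell what less RNA in a cell would have given. In the 6 other cells with at least 2900 genes detected, 1 to 4 members were held. The part of RNA content in the result was not tested.

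Other cell cycle genes, listed by function and not among the 48, were most numerous in the same 5 cells. Of 30 other S genes, cell 25 held 15, cell 50 held 11, cell 37 held 10, cell 30 held 5 and cell 84 held 1. Of 40 other G2/M genes, cells 37 and 84 held 18 each, cell 30 held 7, cell 50 held 6 and cell 25 held 5. The 60 cells that held neither set held at most 3 of each list, with medians of 0 and 1. The 8 cells that held a set with under 10 members held at most 2 of each list, and so lay within the range of those 60. The number of members and of these 70 genes had a Pearson r of 0.92 and a Spearman rho of 0.31 over the 73 cells, a description that rests on the 5 cells and in which both counts share each cell's depth.

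**Figure D3:**
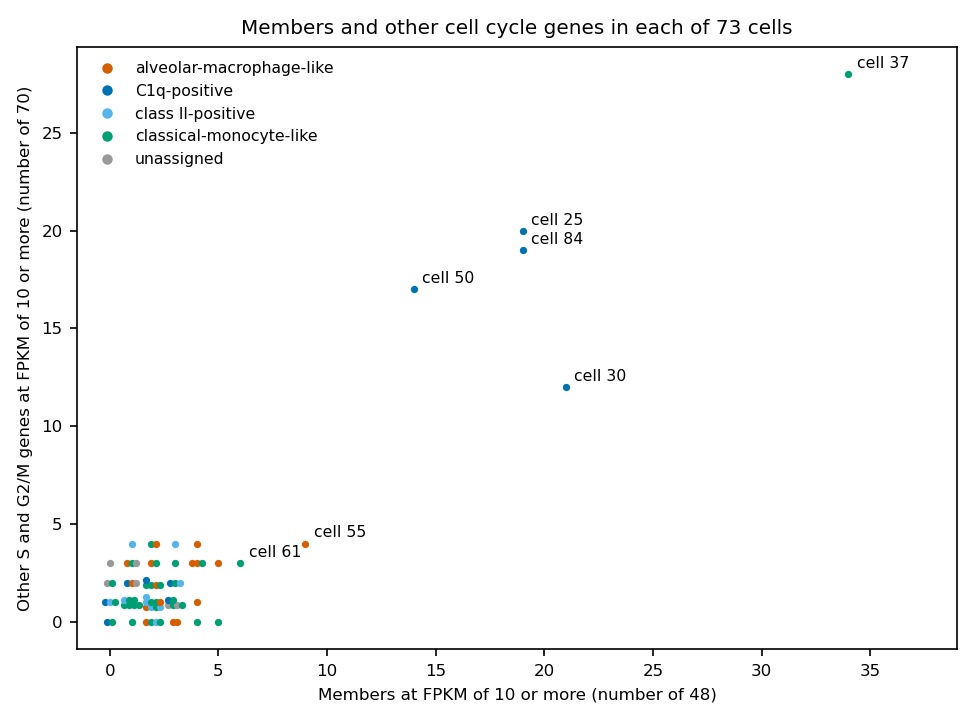
Number of the 48 members (horizontal axis) against number of 70 other S and G2/M genes (vertical axis) at FPKM of 10 or more in each of 73 cells, coloured by class, with overlapping points set slightly apart. Cells 37, 25, 84, 50 and 30 held 12 or more of the other genes, and each remaining cell held 4 or fewer.

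Of these other genes, 15 S and 15 G2/M genes were held by at least 2 of the 13 cells, and 6 and 8 of them by none of the 60. The same counts over all genes are not given here, so these have no background. Median genes detected were 3238 in the 5 cells and 2770 in the other 8 that held a set, against 2200.5 in the 60. Rfc4, of the clamp loader, was held by cells 50 (344), 37 (284), 30 (134) and 25 (11.8) and by none of the 60, and Orc6, of the origin recognition complex, by cells 37 (132), 25 (130.3) and 50 (103). Prim1, the primase, was at 282 in cell 50, 95.5 in cell 37, 37.99 in cell 75 and 19.7 in cell 25. On the mitotic side Spc24, of the kinetochore, was at 335 in cell 37 and 127 in cell 84, and Kif22, a chromosome motor, at 178 and 150.3 in the same cells. Cdca2 was at 151 in cell 50, 46.7 in cell 84 and 17.8 in cell 37. Other genes were common outside the 5 cells. Nasp, a histone chaperone, was held by 0 of the 5 cells and 9 of the 60, and Rpa3, of the single-strand binding complex, by 3 of the 5 and 7 of the 60. Cks2 was held by 3 of the 5 and 18 of the 60, and Pttg1, securin, by 2 of the 5 and 17 of the 60. Cks1b, a subunit of cyclin-dependent kinases, was held by 5 of the 5 cells, by 7 of the 13 and by 3 of the 60.

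Genes of G1 and the brakes of the cycle were found in all cells. Of 26 such genes the 5 cells held 6 to 12, the other 8 cells that held a set 3 to 7, and the remaining 60 cells 2 to 8. Cdk4, the kinase of G1, was held by 5 of the 5 cells, 7 of the 13 and 9 of the 60. Btg1, an antiproliferative gene, was held by 13 of 13 and 60 of 60 cells, and Btg2 by 13 and 54. Cdkn1a, the inhibitor p21, was held by 12 of the 13 and 46 of the 60, and the exception among the 13 was cell 25 at 5.48. Transcripts of these brakes were therefore present beside the S and G2/M genes.

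Identity was read from marker lists that hold no member. Of the 6 genes of the sort and of macrophages in general, Lyz2 was held by 72 of 73 cells, Cd68 by 65, Ptprc (CD45) by 61, Csf1r by 58, Emr1 (F4/80) by 34 and Itgam by 27. The label of macrophage thus covers cells without F4/80 transcript at FPKM 10. By counts of markers, 16 cells were alveolar-macrophage-like (at least 6 of 12 markers), 10 C1q-positive (at least 2 of C1qa, C1qb and C1qc), 10 class II-positive (at least 3 of 4 genes), 31 classical-monocyte-like (at least 5 of 10) and 6 unassigned, in that order of precedence. Such a class is a range of a count and not a cell type. The classes overlap, since 9 of 10 C1q-positive cells also met the class II cut and 2 the monocyte cut. Among class II-positive cells 8 of 10 held 5 or more classical monocyte markers, as did 3 alveolar-macrophage-like cells. Over all 73 cells, 4 lay exactly at the alveolar cut, 2 at the C1q cut, 4 at the class II cut and 4 at the monocyte cut. Of the cells at the monocyte cut, cell 38 was C1q-positive.

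The 5 cells with at least 10 members fell into 2 classes. They were 4 of 10 C1q-positive cells (40%, 12.2 to 73.8), namely 25, 30, 50 and 84, and 1 of 31 classical-monocyte-like cells (3.23%, 0.0816 to 16.7), cell 37. None of 16 alveolar-macrophage-like and none of 10 class II-positive cells reached 10 members, which allows shares of up to 20.6% and 30.8%. A set was held by 4 alveolar-macrophage-like cells (19, 55, 64 and 75), 4 C1q-positive cells, 5 classical-monocyte-like cells (24, 37, 58, 61 and 77) and no class II-positive or unassigned cell. The median number of members was 3 in C1q-positive cells (0 to 21), 2.5 in alveolar-macrophage-like cells (1 to 9), and 2 in both class II-positive (0 to 3) and classical-monocyte-like cells (0 to 34). Median genes detected were 2322, 2739.5, 2295 and 2163 in the same order.

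Classes were also compared by their mean log2(FPKM + 1). Against the classical-monocyte-like class, 14 of the 45 members measured at a mean FPKM of 1 or more were higher by at least 1 log2 unit in C1q-positive cells, beside 12.4% of 8576 genes, and 0 were lower, beside 6.96%. The median difference was 0.59 over the members and 0.03 over all genes. The difference was 3.37 for Stmn1, 2.24 for Mcm3, 1.95 for Cdca8 and 1.85 for Rrm1. Within that class, all of the 14 but Mcm3, Pcna and Stmn1 were held only by cells of the group 25, 30, 50 and 84. Some members passed the filter through few cells, such as Ccnb1, held by cell 30 alone. Without the filter, 14 of 48 were higher. The count thus largely restates cells 25, 30, 50 and 84 and is not a trait of the class as a whole. In alveolar-macrophage-like cells 3 members were higher (Pcna by 1.44, Stmn1 by 1.30 and Bub1b by 1.11), beside 13.7% of genes, and 1 was lower (Hmgb2, -1.53), beside 6.37%. In class II-positive cells, 8 of 10 of which also met the monocyte cut, 0 were higher and 0 lower, beside 8.21% and 6.56%. Only Mcm5, Pcna, Tyms, Slbp, Ube2c and Hmgb2 had a mean above 1 in classical-monocyte-like cells. No other member could be lower by 1 log2 unit in any class, so the counts of lower members say little. Hmgb2 was held by 18 of 31 classical-monocyte-like and 4 of 16 alveolar-macrophage-like cells.

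Cell 37, with the highest count of members, held 8 of the 10 classical monocyte markers. Ly6c2 was at 1753, Plac8 at 2452, Ccr2, the receptor for entry into tissue, at 347, and Hp at 519. C1qa, C1qb, C1qc and H2-Aa were listed at 0 in it. Emr1 (0.98) was below the threshold and Csf1r was at 160.4. Cell 37 thus carried both cell cycle sets with monocyte transcripts and without those of C1q or class II heterodimers.

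Cell 30 had markers of several kinds. It held 8 of 10 classical monocyte markers (Ly6c2 at 1816, Plac8 at 2547). All 4 class II genes (H2-Aa at 882) and the 3 C1q genes (C1qb at 361) were also held. Of 6 progenitor markers it held only 2, Elane at 257 and Prtn3 at 545, proteases of granulocyte and monocyte precursors. Of 8 neutrophil markers it held 2, among them S100a8, also of monocytes, at 3752. The cell had the most mouse fragments of the 73, and whether its capture site held more than 1 cell was not tested.

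Cells 25 and 84 shared transcripts of C1q, class II and Ccr2 and differed in their sets. Cell 25, mainly S, had C1qb at 1197, H2-Aa at 2470 and Ccr2 at 187, and cell 84, mainly G2/M, had C1qb at 835, H2-Aa at 5471 and Ccr2 at 388, with C1qc listed at 0. Ly6c2, Plac8, Ms4a7 and Pf4 were listed at 0 in both. Each held 2 of 10 dendritic cell markers, Batf3 (20.1) and Clec9a (23.5) in cell 25 and Batf3 (268) and Cd209a (413) in cell 84, while Flt3 and Zbtb46 were listed at 0 in both. Emr1 was at 59.4 in cell 25 and listed at 0 in cell 84.

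Cell 50, with 11 S genes, carried 9 of 11 interstitial macrophage markers. C1qb was at 4297, Apoe at 8139, Ms4a7 at 2030, Pf4 at 360.4 and Csf1r at 673, the highest Csf1r value of the 73 cells. H2-Aa was listed at 0 and Cd74 was at 258. It was the only C1q-positive cell below the class II cut.

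The other 6 C1q-positive cells (11, 15, 32, 38, 65 and 94) held 0 to 3 members. Their C1qb ran from 488 to 4349 and overlapped that of the 4 cells (361 to 4297). Ccr2 was held by 4 of the 4 cells (62.5 to 388) and by 2 of the 6 (0 to 359), and Ms4a7 by 1 of 4 and 5 of 6. Cell 38 also held 4 of 8 endothelial markers. These cells are too few to compare beyond listing their values.

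**Figure D4:**
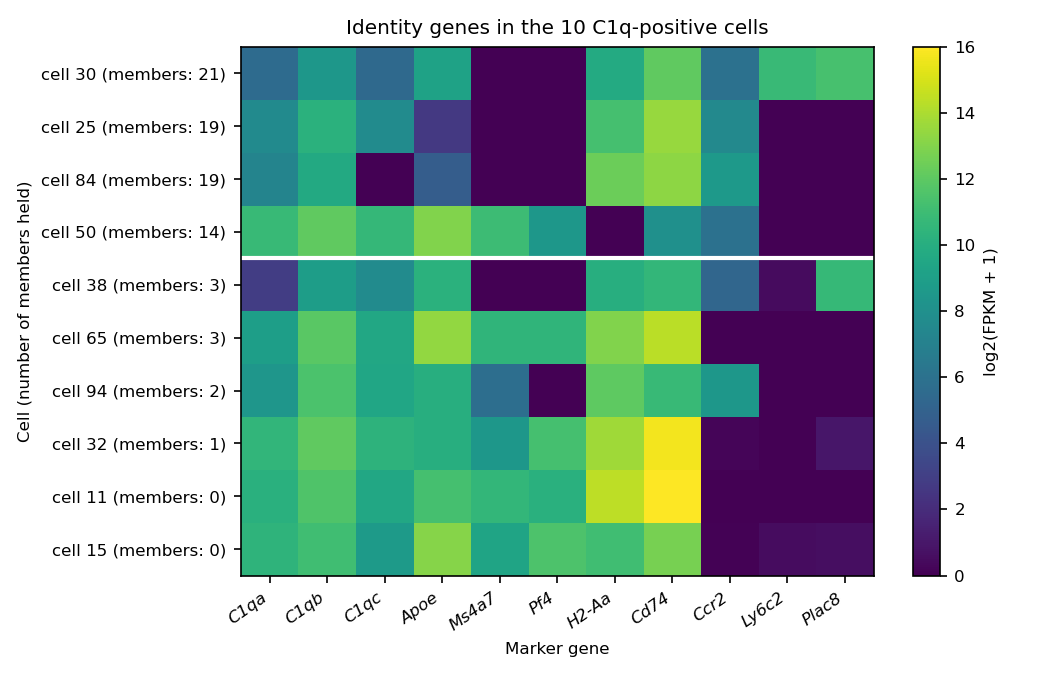
Level of 11 identity genes (horizontal axis) in the 10 C1q-positive cells (vertical axis, with the number of members held), as log2(FPKM + 1), with the 4 cells of at least 10 members above the white line. Ms4a7 and Pf4 are at 0 in cells 30, 25 and 84, and Ccr2 is present in all 4 upper cells and in cells 38 and 94.

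Cell 55 came next and was the alveolar-macrophage-like cell with most members, 3 S and 6 G2/M genes. It held 8 of 12 alveolar markers, with Chil3 at 5089, Ear1 at 248, Plet1 at 213 and Krt79 at 187, and had no classical monocyte marker at FPKM 10. Its G2/M genes were Ccnb2, Ube2c, Birc5, Stmn1, Top2a and Cenpf, given above, and it also had Cks1b at 728, though it held only 2 other S and 2 other G2/M genes. Of the other alveolar-macrophage-like cells that held the S set, cell 19 carried 11 of 12 markers. Cell 75 held 7 alveolar and 6 classical monocyte markers, and cell 64 held 6 alveolar and 4 class II markers. Those 3 cells held 0 or 1 G2/M gene.

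The classical-monocyte-like cells 24, 58, 61 and 77 held 10, 6, 8 and 9 of the 10 monocyte markers and 4 to 6 members. Cell 61 held Rfc2 (269.9), Kif23 (242), Fen1 (166), Mcm5 (119), Hmgb2 (38.1) and Ccna2 (14.1), a mix with no MCM subunit besides Mcm5. Cell 77 held Ube2c (207), Hmgb2 (105), Cdc20 (87.8) and Kif23 (43.2). Cell 24 held Pcna (436), Hmgb2 (193), Fen1 (175), Ube2c (23.5) and Mcm7 (23.2). In cell 58 Hmgb2 was at 73.9, Pcna at 40.1, Prc1 at 27.6 and Cenpa at 13.9. None of the 13 cells that held a set carried an endothelial, epithelial, mast cell, or erythroid and platelet marker at FPKM 10, and none had more than 1 B cell, T or NK cell or fibroblast marker. They held 0 to 3 of 10 non-classical monocyte markers, 0 to 2 of 6 progenitor markers and 0 to 2 of 8 neutrophil markers. At least 3 endothelial markers were found in cells 2, 38 and 54, which held neither set.

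**Figure D5:**
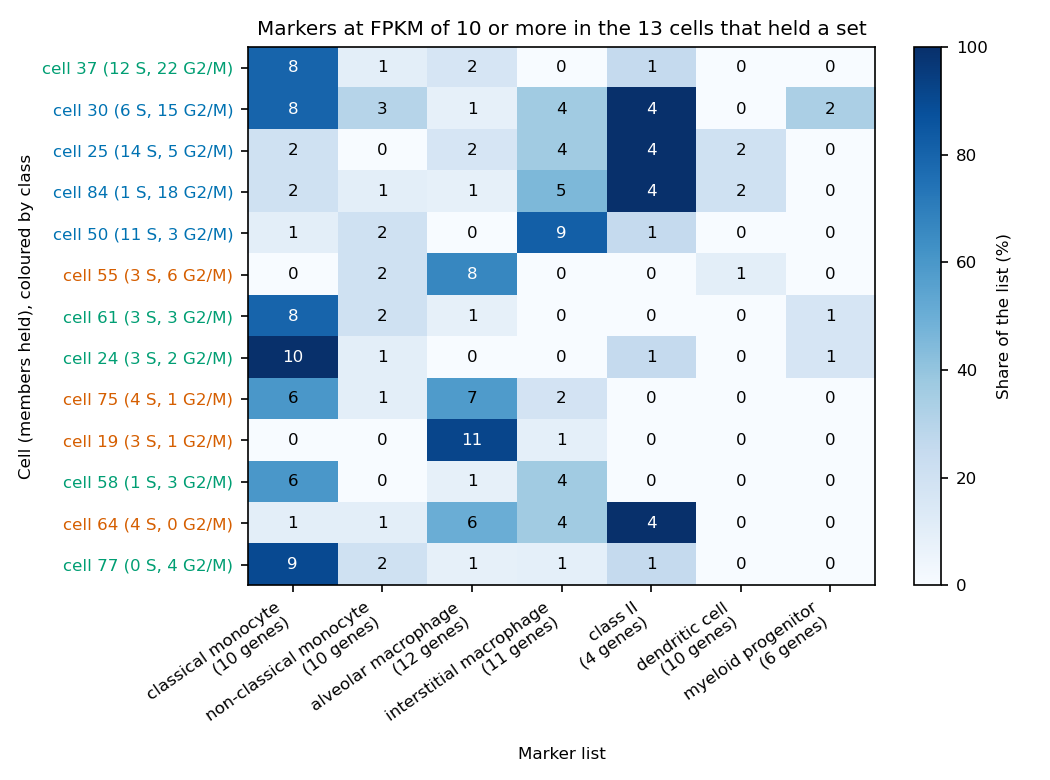
Number of markers at FPKM of 10 or more from 7 lists (horizontal axis) in the 13 cells that held a set (vertical axis, with their S and G2/M counts), shaded by share of the list and with cell names coloured by class. Cell 37 has 8 monocyte and 0 interstitial markers, cell 50 has 9 interstitial markers, cells 30, 25 and 84 have all 4 class II genes, and cell 55 has 8 alveolar markers.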

How the data were processed

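Single-cell libraries of 73 cells of 1 mouse were analysed, each column matched to its sample by the cell number in the title, with 0 columns unmatched. The submitters' processing notes name CASAVA 1.8, TopHat2 2.1.0, the build mm10, Cuffnorm and Cufflinks 2.2.1; annotation, strand setting and filters are not given in the sources used here. FPKM values as deposited are normalised per cell by the authors' tools. The deposited count table holds a signal, fragments divided by a factor per cell. Among 100157 low values (0.5 to 20 steps), 99.6% came within 0.1 of whole multiples of a step particular to the cell. Fragments were estimated as those multiples, and no count model was used. The 100 spike-in rows were set aside, which left 23994 of 24094.

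A gene was held at FPKM of 10 or more and a set with at least 3 genes. Class means used log2(FPKM + 1) for genes with mean FPKM of 1 or more, with a difference of 1 as the size that was counted. No doublet caller was run, so whether a capture site held more than 1 cell was not tested for any cell. Named genes were all 48 members and were otherwise drawn from other cell cycle genes held by at least 2 of the 13 cells that held a set, markers, and the 10 other genes with the largest difference in share of cells between those 13 and the rest. The members and all lists were chosen with earlier results of these data known. Alternatives were other thresholds, the count table, rescaled FPKM, thinning, fewer members, fewer cells and another pseudocount. The counting was checked on simulated data. Intervals are at 95%, and a count of 0 is given the upper end of its interval. Python 3.11.15, pandas 2.3.3, NumPy 2.4.6, SciPy 1.17.1 and matplotlib 3.10.9 were used.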

Additional observations from a re-analysis of the deposited data

How the results depend on the processing

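Of 116 recomputed values, 78 stayed within the interval of the main share (for a count of members, within 1.5 times) and 38 did not. Many counts moved with the threshold. With FPKM above 0 the S set was held by 51 cells, the G2/M set by 68, both by 50, S alone by 1, G2/M alone by 18 and any member by 73. With FPKM of 1 or more these were 30, 31, 18, 12, 13 and 73, and with the count table at 10 or more fragments 27, 25, 17, 10 for S alone and 73 for any member. With FPKM of 5 or more S alone was held by 10 cells, and with 50 or more the S set by 4, S alone by 1 and any member by 51. Needing 1 gene gave 53 (S), 48 (G2/M), 36 (both), 17 (S alone) and 12 (G2/M alone), needing 2 genes 28 (S), 21 (G2/M), 19 (S alone) and 12 (G2/M alone), and needing 5 genes 4 (S) and 1 (S alone). Needing 4 genes gave 6 (S), 6 (G2/M) and 3 (both). These shifts follow from looser or stricter counting. Without Pcna, Slbp, Stmn1 and Hmgb2, an alternative chosen after seeing the data, any member was held by 42 cells, the S set by 7, the G2/M set by 6 and both by 3. With a pseudocount of 0.1 the members past 1 log2 unit against classical-monocyte-like cells were 23 higher in C1q-positive cells, 6 higher and 4 lower in alveolar-macrophage-like cells, and 2 higher and 4 lower in class II-positive cells; the smaller pseudocount widens differences of low genes. Counting markers at FPKM 1 gave 0 cells another class. No paired analysis was possible because all cells form 1 group of 1 mouse. Replicates could not be left out for the same reason. Depth limits the absence of a transcript, since a gene at 0 in a cell may have been missed.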

Other observations

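Outside all lists, the 10 genes are given whose share of cells differed most between the 13 cells that held a set and the other 60. They are the extremes of a ranking of genes on these same data. No background for such differences is given, so no theme is read from them. Mrpl18, a mitochondrial ribosomal protein, was at FPKM 10 or more in 12 of 13 cells and 16 of 60, Lsm5, of the RNA-binding LSM ring, in 10 and 7, and Ccdc12 in 13 and 23. Kars, lysyl-tRNA synthetase, was held by 9 and 11 cells, Tcp1, of the cytosolic chaperonin, by 9 and 11, and Fkbp4, a co-chaperone, by 8 and 7. The chromatin genes Cbx1 (heterochromatin protein 1 beta) and Nucks1 were held by 8 and 7 and by 8 and 6, Atg101 by 8 and 7, and Stra13 by 10 and 14. In the 5 cells with at least 10 members, Mrpl18, Ccdc12, Kars and Tcp1 were held by 5 of 5, Lsm5, Nucks1, Atg101, Fkbp4 and Cbx1 by 4, and Stra13 by 3. Median genes detected were 3238 in these 5 cells, 2770 in the other 8 that held a set and 2200.5 in the 60, and the part of depth in these differences was not tested.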
